A study of Saccharomyces cerevisiae with 2 samples.

Results

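The genes described here encode the DNA repair machinery of the budding yeast Saccharomyces cerevisiae. They were chosen by name: every gene of the deposited table called RAD, MSH, MLH or REV with a number, together with PHR1, OGG1, APN1, NTG1, NTG2, MAG1, UNG1, MGT1 and PMS1. The rule found 51 genes of the 5734 listed. Libraries from total RNA of 2 strains were sequenced, 1 library each. Y518 is labelled as a mutant, and by the series title it makes much glutathione, while the other strain, Sample_2_10515 in the headings of the deposited tables, is labelled wild type. No allele is named for either, and how Y518 was obtained and how closely the strains are related are not given in the sources. Seed cultures of both strains were grown from a single colony for 18 h at 30 °C and 180 rpm, and both fermentations were harvested after 24 h.

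Different kinds of DNA damage are handled by different repair routes. Direct reversal undoes a lesion in place, base excision removes single altered bases, nucleotide excision cuts out a stretch of strand around a bulky lesion, and mismatch repair corrects errors left by the replicative polymerases. Broken chromosomes are mended by homologous recombination, damage tolerance lets replication pass a lesion, and checkpoint proteins hold the cell cycle meanwhile. In yeast many of the genes are named RAD because their mutants are sensitive to radiation.

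Depth was 4.32 M unique reads in Y518, on 5681 genes, and 4.71 M in the wild type, on 5664 genes. RPKM, the level used below, is the number of reads per kilobase of coding length, scaled to a library of fixed size. With 1 library per strain the differences have no replicate check, and no test between the strains was possible. The call was by size: at least 2-fold on the scale of log2(RPKM + 1), Y518 over the wild type, among the 5415 genes whose RPKM averaged 5 or more over the libraries. The added 1 RPKM understates the change of low genes. The fold of a single gene, in contrast, compares its share of library reads with nothing added. It carries an exact (Clopper-Pearson) 95% counting interval, which covers counting error only, not the spread between cultures. Over all genes that reached the minimum the median log2 ratio was 0.27, a general offset towards Y518, and "centred" values below have it subtracted.

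DNA repair transcripts were scarce in both strains. In RNA from a whole culture, fewer cells that hold a transcript and less of it per cell cannot be told apart. The median member had 22.3 RPKM in Y518 and 14.4 RPKM in the wild type, where the median of all listed genes was 46.8 RPKM in Y518 and 38.6 RPKM in the wild type. In Y518 41 of the 51 members lay below the median gene of the library, and in the wild type 44 of 51 did. Together the members took 11430 reads in Y518 (0.265% of the library) and 8657 reads in the wild type (0.184%). RAD23 was among the most abundant, with 156 RPKM in Y518 and 148 RPKM in the wild type. The order of the members was only partly shared, with a Spearman rho of 0.72 between the strains over the 51 members and 0.86 over all 5734 genes. Each rho is over genes of the same 2 libraries, which are not independent replicates.

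**Figure D1:**
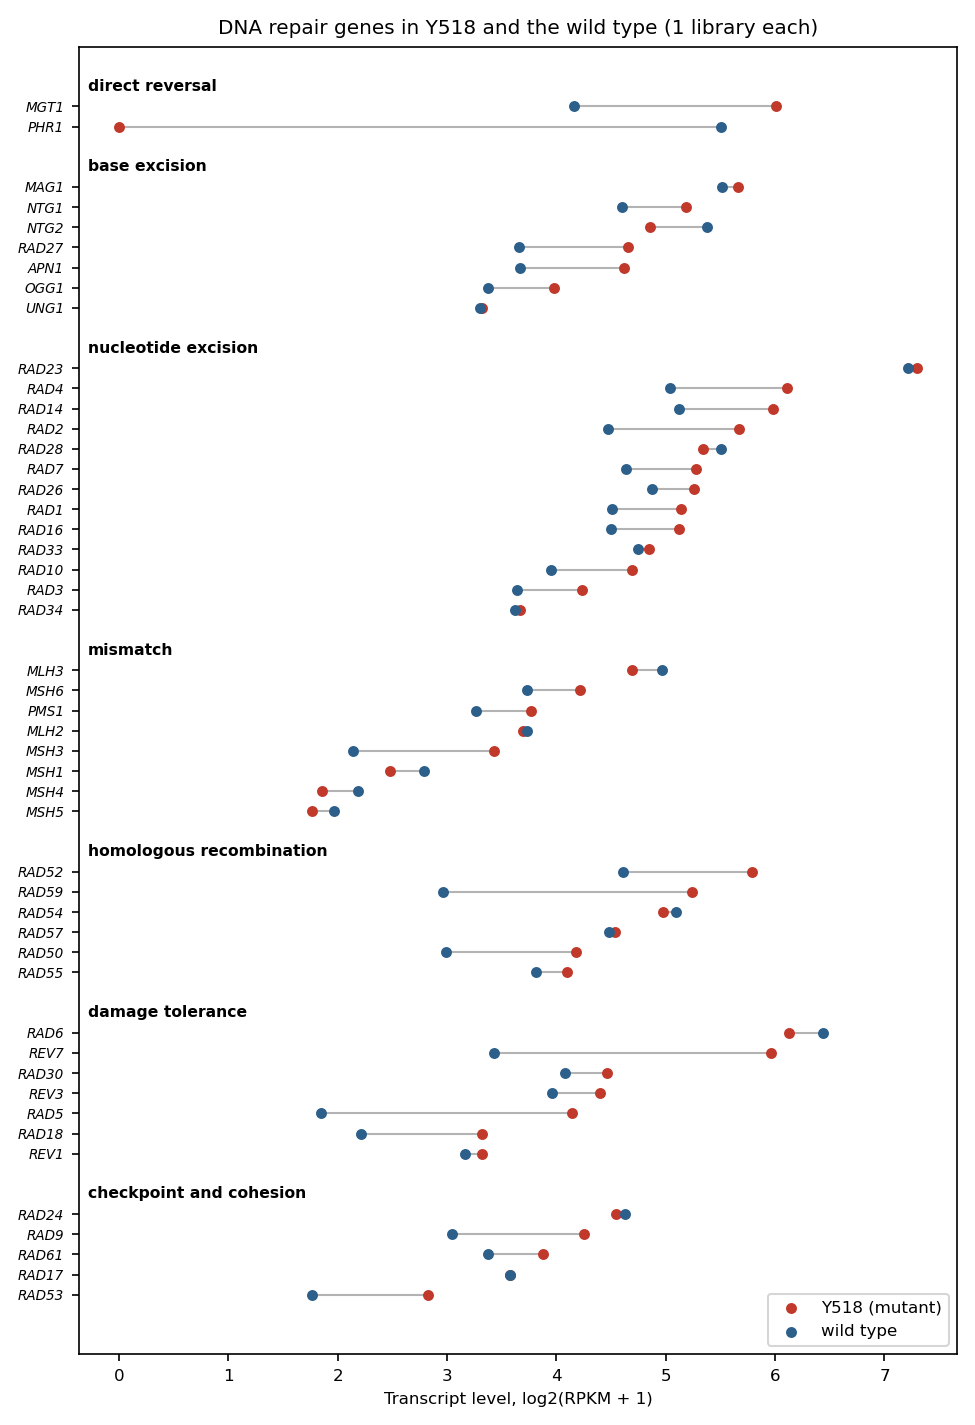
Transcript level of 48 repair genes, as log2(RPKM + 1), in Y518 (red) and the wild type (blue), 1 library each, grouped by repair type and ordered by the level in Y518. PHR1 stands at 0 in Y518, and RAD23 is the highest of the genes drawn in both strains.

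Of the 51 members 48 reached the minimum of 5 RPKM, 13 of them were at least 2-fold higher in Y518, 1 was at least 2-fold lower and 34 lay within 2-fold. The share of higher members, 27.1%, stood beside 19.9% of all genes compared, and the share of lower members, 2.08%, beside 8.88% of all genes. After centring, 7 members were higher and 1 was lower, where 13.2% of all genes were higher and 13.6% lower. The median log2 ratio of the 48 members was 0.50, which is 0.23 above that of all genes. RAD18, RAD2, RAD4, RAD50, RAD52 and RAD9 were the 6 called members that came within 2-fold after centring. The same 6 came within 2-fold under TMM, a scaling that balances the bulk of genes between libraries.

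Low levels limit several of these ratios. The members below the minimum were RAD53, MSH4 and MSH5. A further 6, among them PHR1, MSH1, MSH3, RAD5 and RAD18, reached it although 1 library was under 5 RPKM, and 4 of those were called higher and 1 lower. Members called partly because 1 library lifted the mean over the minimum had to differ, so the counts above are a description. Among the 42 members with at least 5 RPKM in both libraries, 9 were called higher. Of all genes that averaged 5 RPKM or more, a wider filter, 19.9% were. Just inside the threshold stood RAD4, at 1.07 on the log2 scale, and just outside it RAD27 and APN1, at 0.99 and 0.94. The counting interval lay wholly above 2-fold for 9 of the 48 members, beside 13.2% of all genes, and wholly beyond 2-fold lower for 1, PHR1, beside 6.32% of all genes. Over all 51 members it lay above 1 for 30, below 1 for 5 and held 1 for 16, where it lay above 1 for 48.2% and below 1 for 25.5% of all genes.

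**Figure D2:**
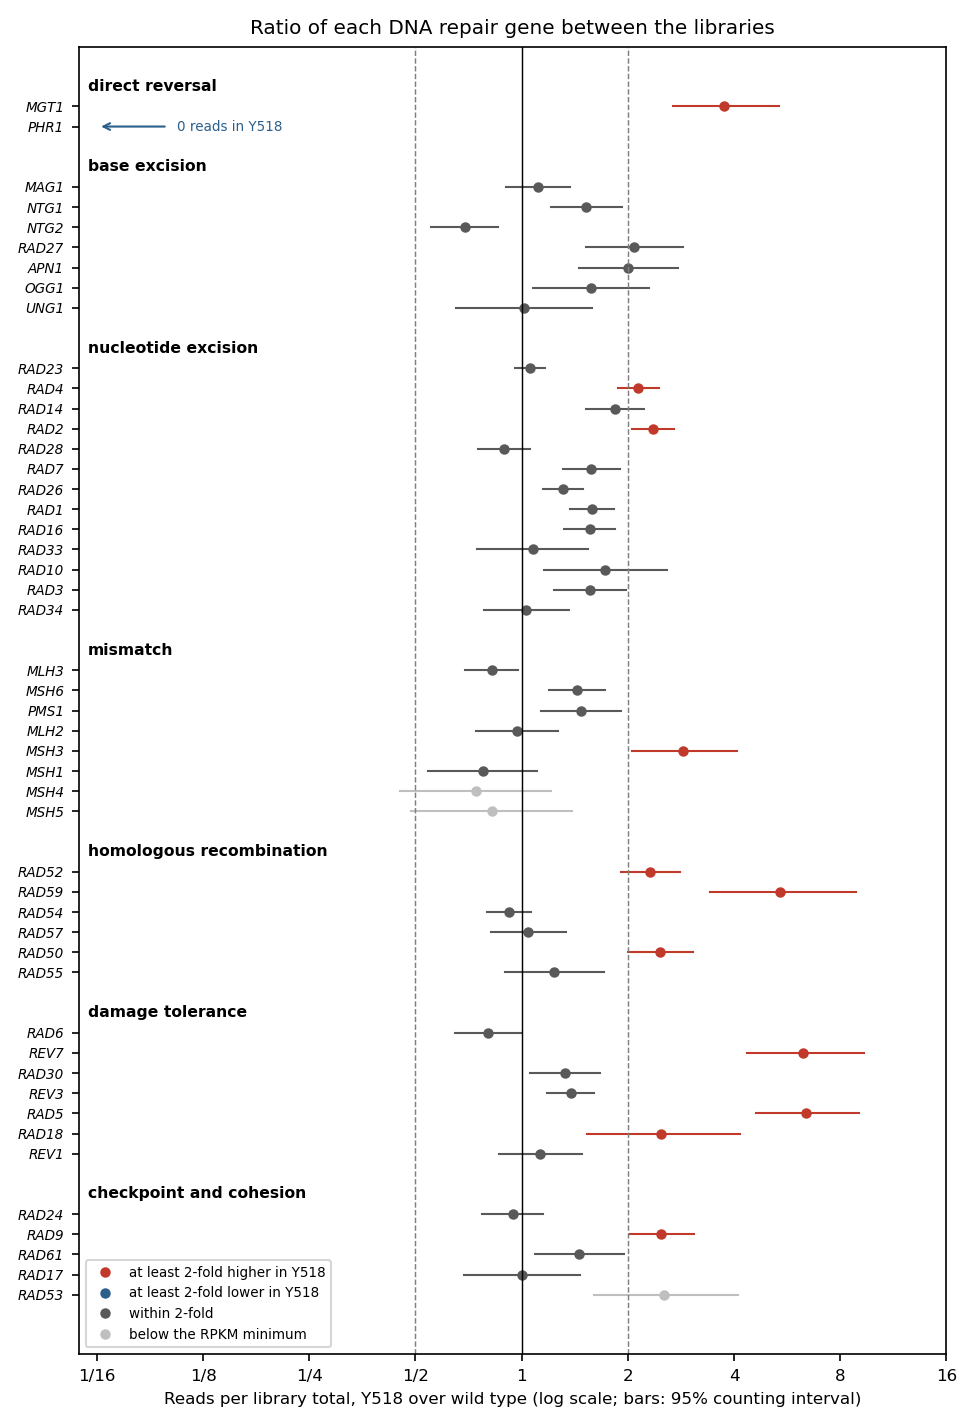
Reads per library total in Y518 over the wild type for 48 repair genes, on a log scale, with 95% counting intervals as bars and dashed lines at 2-fold. Red points are called higher in Y518 and grey ones are not called (light grey, below the minimum); PHR1, with 0 reads in Y518, is drawn as a blue arrow, and RAD5, REV7 and RAD59 lie farthest to the right.

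Some of these genes carry the MCB (MluI cell cycle box) in their promoters, the element ACGCGT bound by the MBF factor, which times transcription of many replication and repair genes to the start of S phase. Promoter windows were read from the RefSeq R64 reference assembly, from 250 bases before to 50 after the first base of the coding sequence. The reference is strain S288C, so the sequence is that of neither strain sequenced here. All 51 members matched an R64 record by accession and version, with the same coding length. ACGCGT is its own reverse complement, and it was found in 7 of 51 member windows (13.7%) and in 182 of 5685 windows over all matched genes (3.20%). Among them were MSH6, PMS1, RAD5, RAD17, RAD27 and UNG1. To let the element be seen in its setting, a stretch is printed for 4 members that have it between 210 and 111 bases before the start codon, read on the coding strand in the 5′ to 3′ direction with the element in capitals.
RAD5 (R64, chrXII:204781-204880, + strand): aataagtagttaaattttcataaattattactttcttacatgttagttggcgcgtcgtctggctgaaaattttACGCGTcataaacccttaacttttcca
RAD27 (R64, chrXI:225986-226085, - strand): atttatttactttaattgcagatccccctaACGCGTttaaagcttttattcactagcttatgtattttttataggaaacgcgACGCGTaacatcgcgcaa
MSH6 (R64, chrIV:643948-644047, - strand): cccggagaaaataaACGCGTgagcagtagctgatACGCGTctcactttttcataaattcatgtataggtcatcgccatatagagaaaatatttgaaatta
PMS1 (R64, chrXIV:473181-473280, + strand): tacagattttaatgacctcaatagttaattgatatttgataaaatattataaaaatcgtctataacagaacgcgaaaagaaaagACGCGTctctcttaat

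RAD27 and MSH6 each hold 2 copies of the element, which begin 180 and 128 bases before the start codon in RAD27 and 196 and 176 bases before it in MSH6. Holding the element went with no common ratio among the members. Of the 7 with it, 2 were called higher in Y518, RAD5 among them, and the other 5 were within 2-fold, with UNG1 and RAD17 at ratios of 1.02 and 1.0. The median log2 ratio was 0.51 for the 7 members with the element and 0.50 for the 41 without it that reached the minimum. Over all genes it was 0.36 for 170 genes with the element and 0.27 for 5225 without it. Of these, 32 of the 170 and 1035 of the 5225 were called higher. A match is a description of the reference sequence, and binding was not measured.

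Direct reversal held the member with the lowest ratio. PHR1 (YOR386W) encodes photolyase, the enzyme that splits pyrimidine dimers with the energy of light. It had 0 reads in Y518 and 354 reads in the wild type, where 98.6% of its coding sequence was covered at 44.3 RPKM. A count of 0 allows up to 3 reads in Y518, a level of 0.409 RPKM. Scaled to library size, the 354 wild-type reads were 108 times that limit, a figure that leaves out their own counting error. The counting interval of the ratio, which includes that error, ran from 0 to 0.0114. Of the 4216 genes with at least 100 reads in the wild type, 7 (0.166%) had 0 reads in Y518.

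Listed genes beside PHR1 were also without reads in Y518. YOR385W on one side had 0 reads in Y518, against 153 in the wild type, and YOR387C on the other side 0 reads in Y518, against 11 in the wild type. Beyond YOR385W, FRE5 had 0 reads in Y518, against 702 in the wild type, and FIT3 and FIT2 had 3 reads each in Y518 against 46590 and 22595 in the wild type. YOR381W-A had 0 reads in Y518, against 16 in the wild type. Reads returned on the far side of YOR387C, where FDH1, a formate dehydrogenase gene, had 296 reads in Y518, against 870 in the wild type. The next gene, YOR389W, had 321 reads in Y518, against 337 in the wild type, and its value is uncertain because it has a near-identical copy. The stretch without reads or nearly so therefore spanned at least 7 listed genes in a row. Whether these genes are present in Y518 was not tested, and missing transcript, a missing gene and sequence too different to map cannot be told apart here.

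**Figure D3:**
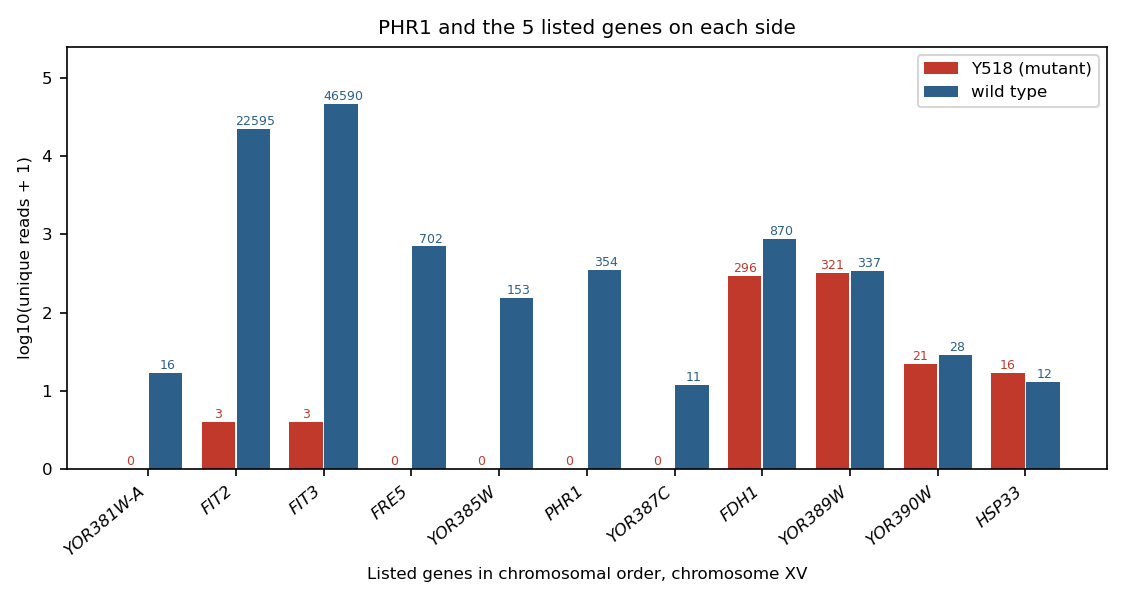
Unique reads, as log10(reads + 1) with the counts printed above the bars, for PHR1 and the 5 listed genes on each side in chromosomal order, in Y518 (red) and the wild type (blue). The genes from YOR381W-A to YOR387C have 0 or 3 reads in Y518, and reads return at FDH1.

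The other direct reversal gene stood on the opposite side. MGT1 (YDL200C) encodes the methyltransferase that takes alkyl groups off guanine. It had 155 reads and 63.3 RPKM in Y518, against 45 reads and 16.9 RPKM in the wild type, a 3.76-fold excess (2.68 to 5.36). It was covered over 96.3% of its length in Y518 and 81.7% in the wild type. In the wild type that coverage was 16.3 percentage points below what as many evenly placed reads would give. Here and below, even placement means at random, with the same chance at each base of the gene. TRM8, on the opposite strand with 79 bases between the coding sequences, was itself 2.14-fold higher in Y518. The sources do not say whether counting used the strand, and the part of TRM8 in the reads of MGT1 was not tested.

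Of the 7 base excision genes 0 were called in either direction, beside 19.9% of all genes higher and 8.88% lower, shares at which 7 genes give few calls. Their median log2 ratio was 0.59. The route starts with glycosylases that release the altered base. OGG1, for oxidised guanine, had 72 reads (14.7 RPKM) in Y518 and 50 reads (9.39 RPKM) in the wild type. MAG1, for alkylated adenine, had 49.7 RPKM in Y518 and 44.6 RPKM in the wild type, and UNG1, for uracil, had 9.01 RPKM in Y518 and 8.85 RPKM in the wild type. The paralogues NTG1 and NTG2, glycosylases for oxidised pyrimidines, stood on opposite sides of 1. NTG1, found in nucleus and mitochondria, had 35.3 RPKM in Y518 and 23.2 RPKM in the wild type, a ratio of 1.52 (1.21 to 1.92). NTG2, nuclear, had 28.0 RPKM in Y518 and 40.5 RPKM in the wild type, a ratio of 0.69 (0.55 to 0.86). The level of NTG1 was 1.26 times that of NTG2 in Y518 and 0.572 times in the wild type, a difference of 2.21-fold (1.60 to 3.04). So the more abundant transcript of the pair was NTG1 in Y518 and NTG2 in the wild type.

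The later steps of base excision were closest to a call. APN1 encodes the main endonuclease at abasic sites and had 112 reads (23.5 RPKM) in Y518 and 61 reads (11.7 RPKM) in the wild type. RAD27, its neighbour on chromosome XI, encodes the flap endonuclease that also trims Okazaki fragments, and had 120 reads (24.2 RPKM) in Y518 and 63 reads (11.6 RPKM) in the wild type. The ratios of reads were 2.00 (1.45 to 2.78) for APN1 and 2.08 (1.52 to 2.87) for RAD27, whose promoter stretch with its pair of MCB elements is printed above. The added 1 RPKM kept both under the 2-fold threshold.

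Nucleotide excision was the largest type, with 13 members, of which 2 were called higher in Y518 (15.4%, against 19.9% of all genes) and 0 lower, and neither of the 2 stayed at 2-fold after centring. All 13 reached the minimum and their median log2 ratio was 0.62. They took 41.6% of the members' reads in Y518 (40.7 to 42.5, exact binomial) and 40.8% in the wild type (39.7 to 41.8). The endonuclease gene RAD2, whose product cuts on one side of the lesion, had 668 reads (50.0 RPKM) in Y518 and 309 reads (21.2 RPKM) in the wild type, a 2.36-fold excess (2.06 to 2.71). RAD4, for damage recognition, had 667 reads (68.2 RPKM) in Y518 and 340 reads (31.9 RPKM) in the wild type, a 2.14-fold excess (1.88 to 2.45).

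The partners of these 2 did not all have like ratios. RAD23 encodes the ubiquitin-like partner of Rad4 and had 808 reads (156 RPKM) in Y518 and 834 reads (148 RPKM) in the wild type, a ratio of 1.06 (0.96 to 1.17). The level of RAD4 was 0.436 times that of RAD23 in Y518 and 0.215 times in the wild type, a difference of 2.03-fold (1.72 to 2.39). RAD34, a relative of RAD4 that acts on ribosomal DNA, had 11.7 RPKM in Y518 and 11.3 RPKM in the wild type, and RAD33, a partner of both proteins, had 27.8 RPKM in Y518 and 25.9 RPKM in the wild type. The other incision nuclease is Rad1-Rad10. RAD1 had 34.4 RPKM in Y518 and 21.7 RPKM in the wild type, and RAD10 had 24.9 RPKM in Y518 and 14.4 RPKM in the wild type. Their ratio to each other was 1.38 in Y518 and 1.51 in the wild type, a difference whose interval (0.60 to 1.40) holds 1.

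The remaining excision members had ratios between 0.89 and 1.84. RAD14, for damage binding, had 62.3 RPKM in Y518 and 33.9 RPKM in the wild type, a ratio of 1.84 (1.52 to 2.23). RAD7 and RAD16, which act together on untranscribed DNA, had 37.7 and 33.8 RPKM in Y518 and 23.9 and 21.7 RPKM in the wild type. RAD7 stood to RAD16 at 1.11 in Y518 and 1.10 in the wild type, so the proportion within this pair differed between the strains by less than counting error (1.01, interval 0.78 to 1.3). RAD3, a helicase of the transcription factor TFIIH, had 17.8 RPKM in Y518 and 11.5 RPKM in the wild type, a ratio of 1.56 (1.23 to 1.97). Of the genes for repair of transcribed strands, RAD26, the homologue of human CSB, had 37.2 RPKM in Y518 and 28.4 RPKM in the wild type. RAD28, the homologue of human CSA, had 39.6 RPKM in Y518 and 44.4 RPKM in the wild type, a ratio of 0.89 (0.75 to 1.05).

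In mismatch repair 2 of the 8 members that reached the minimum were higher in Y518 (25%, against 19.9% of all genes), 0 were lower and 6 lay within 2-fold. Both calls held after centring, MSH3 just inside the threshold at 1.02 on the log2 scale. MSH3 was under 5 RPKM in the wild type and reached the minimum through Y518, so it had to differ and the share is a description. The median log2 ratio was 0.23. MSH3, for recognition of looped-out bases, had 129 reads (9.77 RPKM) in Y518 and 49 reads (3.4 RPKM) in the wild type, a 2.87-fold excess (2.05 to 4.08). The reads covered 75.4% of MSH3 in Y518 and 41.4% in the wild type.

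MSH6, for recognition of base mismatches, stood higher than MSH3 in each library, with 284 reads (17.6 RPKM) in Y518 and 216 reads (12.3 RPKM) in the wild type, a ratio of 1.43 (1.2 to 1.72). PMS1, for an endonuclease of the MutL type, had 12.6 RPKM in Y518 and 8.59 RPKM in the wild type, a ratio of 1.47 (1.14 to 1.91).

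None of the members with other duties was called. MLH3, which acts mainly in meiotic crossing over, had 24.8 RPKM in Y518 and 30.2 RPKM in the wild type, a ratio of 0.82 (0.69 to 0.98). MLH2, an accessory MutL-type gene, had 12.0 RPKM in Y518 and 12.3 RPKM in the wild type. MSH1, the mitochondrial member, had 4.58 RPKM in Y518 and 5.90 RPKM in the wild type. The meiotic pair MSH4 and MSH5 had 30 and 28 reads in Y518 and 44 and 37 reads in the wild type, below the minimum, with intervals of the ratio that hold 1. In the wild type reads covered 34.0% of MSH4, 21.8 points below what evenly placed reads would give.

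Homologous recombination had 4 of 7 members higher in Y518 (57.1%, against 19.9% of all genes) and 0 lower (against 8.88%). Centring left 2 of the 7, where it left 13.2% of all genes higher, and the median log2 ratio was 1.18. Its members took 19.9% of the members' reads in Y518 (19.1 to 20.6) and 14.9% in the wild type (14.1 to 15.6). Such a share gives most weight to the members with most reads, so it does not show a shift of the route as a whole.

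RAD52, for the mediator of strand exchange, which also anneals single strands, had 331 reads (54.1 RPKM) in Y518 and 156 reads (23.4 RPKM) in the wild type, a 2.31-fold excess (1.91 to 2.82). RAD59, a paralogue of RAD52 used in strand annealing, had 114 reads (36.8 RPKM) in Y518 and 23 reads (6.81 RPKM) in the wild type, a 5.41-fold excess (3.43 to 8.87). The level of RAD59 was 0.680 times that of RAD52 in Y518 and 0.291 times in the wild type. RAD50, of the Mre11 complex that tethers and trims broken ends, had 292 reads (17.2 RPKM) in Y518 and 129 reads (6.96 RPKM) in the wild type, a 2.47-fold excess (2.00 to 3.06). MPA43, on the opposite strand and 45 bases from its end, had 11.5 RPKM in Y518 and 7.04 RPKM in the wild type, and its part in the reads of RAD50 was not tested. MRE11 itself, which is outside the rule, had 119 reads in Y518, against 172 in the wild type, a ratio of 0.75 (0.59 to 0.96), and XRS2, the last subunit, had 135 reads in Y518, against 66 in the wild type, a ratio of 2.23 (1.65 to 3.04). The 3 genes of that complex therefore did not share a direction.

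RAD54, RAD55 and RAD57 lay within 2-fold. RAD54, for an ATPase that acts at strand invasion, had 354 reads (30.4 RPKM) in Y518 and 420 reads (33.1 RPKM) in the wild type, a ratio of 0.92 (0.80 to 1.06). RAD55 and RAD57, whose products form a pair that assists strand exchange, had 16.1 and 22.3 RPKM in Y518 and 13.0 and 21.3 RPKM in the wild type, with intervals of the ratio that hold 1 for both.

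Damage tolerance held the members with the 2 largest excesses in Y518 by ratio of reads. Of 7 members 3 were higher (42.9%, against 19.9% of all genes) and 0 lower (against 8.88%). RAD5 and RAD18, both called, were under 5 RPKM in the wild type and reached the minimum through Y518. They had to differ, so this share is a description. Centring left 2 of the 7, beside 13.2% of all genes. The median log2 ratio was 0.44. RAD5 (YLR032W), a ubiquitin ligase and helicase of error-free bypass, had 252 reads (16.6 RPKM) in Y518 and 43 reads (2.60 RPKM) in the wild type, a 6.39-fold excess (4.61 to 9.05). Its coverage was 91.9% in Y518, 5.09 points below even placement, and 42.8% in the wild type, 2.34 points below it. The MCB element in its promoter stretch, printed above, begins 137 bases before the start codon.

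REV7 (YIL139C), for a subunit of the error-prone DNA polymerase zeta, had 196 reads (61.5 RPKM) in Y518 and 34 reads (9.78 RPKM) in the wild type, a 6.29-fold excess (4.35 to 9.34). REV7 lies on chromosome IX, where 51.5% of 194 genes were called higher and the median log2 ratio was 1.01. On the other chromosomes that median was between -0.11 and 0.41. The log2 ratio of REV7 was 2.54, which is 1.53 above the median of its chromosome, and the part of the chromosome in it was not tested. REV3, for the catalytic subunit of the same polymerase, had 391 reads (20.1 RPKM) in Y518 and 310 reads (14.6 RPKM) in the wild type, a ratio of 1.38 (1.18 to 1.60). REV7 stood to REV3 at 3.07 in Y518 and 0.671 in the wild type, a difference of 4.57-fold (3.05 to 6.98).

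The ubiquitin enzymes upstream of bypass had ratios on either side of 1. RAD18, the ligase that marks the replication clamp, had 57 reads (9.02 RPKM) in Y518 and 25 reads (3.63 RPKM) in the wild type, a 2.49-fold excess (1.53 to 4.15). RAD6, its conjugating enzyme, had 68.7 RPKM in Y518 and 85.5 RPKM in the wild type, a ratio of 0.80 (0.65 to 0.99). The level of RAD6 was 7.62 times that of RAD18 in Y518 and 23.6 times in the wild type. The bypass polymerase genes RAD30 and REV1 had 21.1 and 9.01 RPKM in Y518 and 15.9 and 7.97 RPKM in the wild type. Reads covered 68.1% of REV1 in Y518, 17.0 points below even placement, and 69.6% in the wild type, 14.5 points below it.

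In the checkpoint and cohesion group 1 of the 4 members that reached the minimum was higher in Y518 (25%, near the 19.9% of all genes) and 0 lower (against 8.88%), with a median log2 ratio of 0.25. After centring 0 of the 4 were called. RAD9, the adaptor that relays the damage signal, had 306 reads (18.0 RPKM) in Y518 and 134 reads (7.24 RPKM) in the wild type, a 2.49-fold excess (2.03 to 3.07). RAD53, the effector kinase, was below the minimum with 65 reads (6.11 RPKM) in Y518 and 28 reads (2.41 RPKM) in the wild type, a ratio of 2.53 (1.60 to 4.10). Its coverage in Y518 was 54.6%, 17.9 points below even placement. The checkpoint clamp subunit RAD17 had 57 reads in Y518, against 62 in the wild type, and the clamp loader gene RAD24 had 191 reads in Y518, against 221 in the wild type. For both the interval of the ratio holds 1. RAD61, a regulator of cohesin release, had 13.7 RPKM in Y518 and 9.40 RPKM in the wild type.

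**Figure D4:**
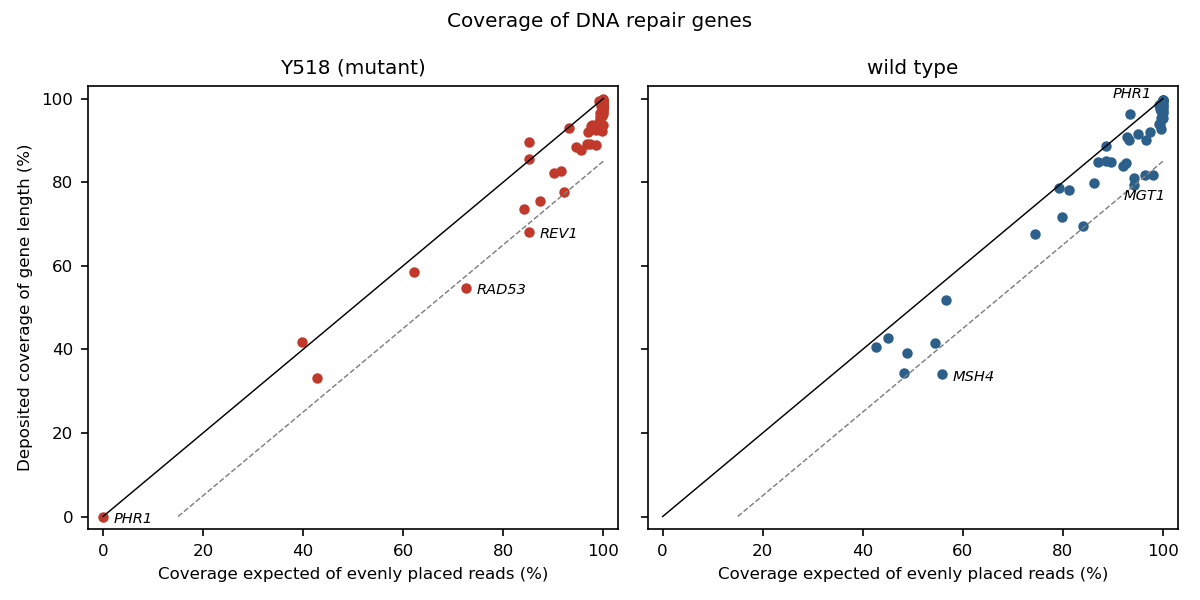
Share of each repair gene's coding length covered by reads, in Y518 (left) and the wild type (right). It is drawn against the coverage that the same number of 49-base reads would give if placed evenly, at random along the gene. The solid line marks equality and the dashed line 15 points below it; REV1 and RAD53 lie past the dashed line in Y518 and MGT1 and MSH4 in the wild type.

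Coverage comes from the same reads as the ratios, so it is not an independent view of the low members. The reads were 49 bases long, as computed from genes with a single read. In Y518 2 members, REV1 and RAD53, lay at least 15 points below the coverage of evenly placed reads, where 5.13% of all genes did. In the wild type 2 members did, MGT1 and MSH4, where 5.41% of all genes did. REV1 was just short of that limit in the wild type, at 14.5 points. Coverage was more than 10 points higher in Y518 for 12 of the 51 members, beside 10.4% of all genes. It was more than 10 points lower for PHR1 alone, beside 5.42% of all genes. Median coverage was 93.4% in Y518 and 90.9% in the wild type for the members. For all genes it was 97.7% in Y518 and 97.0% in the wild type, so these shares are not like for like. No member had a near-identical copy among the other R64 coding sequences (0 of 51 with a match of at least 95% identity over at least 100 bases). The one overlap with another coding sequence was that of RAD10 with YML096W on the opposite strand, over 6 bases.

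Beyond the named families, 83 further genes of repair, checkpoint and damage response were followed as a list. Of 78 that reached the minimum 15 were higher in Y518 (19.2%, against 19.9% of all genes) and 2 lower (2.56%, against 8.88%), with a median log2 ratio of 0.43. After centring 10 were higher and 3 lower. CDC9, for DNA ligase, had 221 reads (22.6 RPKM) in Y518 and 49 reads (4.59 RPKM) in the wild type, a 4.92-fold excess (3.60 to 6.85). POL30, for the replication clamp that Rad18 marks, had 53.1 RPKM in Y518 and 13.7 RPKM in the wild type. POL4, the polymerase of end joining, had 30.6 RPKM in Y518 and 8.86 RPKM in the wild type, a 3.45-fold excess (2.64 to 4.55).

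Among partners of the nucleotide excision members, SSL2, a TFIIH helicase, had 1786 reads in Y518, against 738 in the wild type, and TFB5, a small TFIIH subunit, had 58 reads in Y518, against 23 in the wild type. The helicase gene MPH1 had 364 reads in Y518, against 138 in the wild type. SSL2 and MPH1 lie on chromosome IX like REV7. Of 12 measured checkpoint signalling genes, 11 reached the minimum and 0 were called in either direction, beside 19.9% of all genes higher and 8.88% lower. The median log2 ratio of the 11 was 0.55. Over all 12 the counting interval lay above 1 for 9 and below 1 for 1, beside 48.2% and 25.5% of all genes.

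Genes for the supply of deoxynucleotides are known as targets of the DNA damage response. Of 9 damage-inducible genes and their regulators 2 were higher in Y518 (22.2%, near the 19.9% of all genes) and 2 lower (22.2%, against 8.88%), with a median log2 ratio of -0.46. After centring 2 were higher and 3 lower, beside 13.2% and 13.6% of all genes. The counting interval lay above 1 for 4 of the 9 and below 1 for 5, so the group did not share a direction. SML1, for the protein inhibitor of ribonucleotide reductase, had 717 RPKM in Y518 and 245 RPKM in the wild type, a 2.92-fold excess (2.59 to 3.30). HUG1, for another inhibitor of that enzyme, had 14 reads in Y518, against 3 in the wild type, a ratio of 5.09 with a wide interval (1.42 to 27.6). RNR3, the damage-inducible large subunit, had 144 reads (12.8 RPKM) in Y518 and 372 reads (30.3 RPKM) in the wild type, 2.37-fold lower in Y518 (1.95 to 2.89), and lies on chromosome IX. DIF1, which guides the small subunits into the nucleus, had 53 reads in Y518, against 162 in the wild type, 2.80-fold lower in Y518 (2.04 to 3.9).

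**Figure D5:**
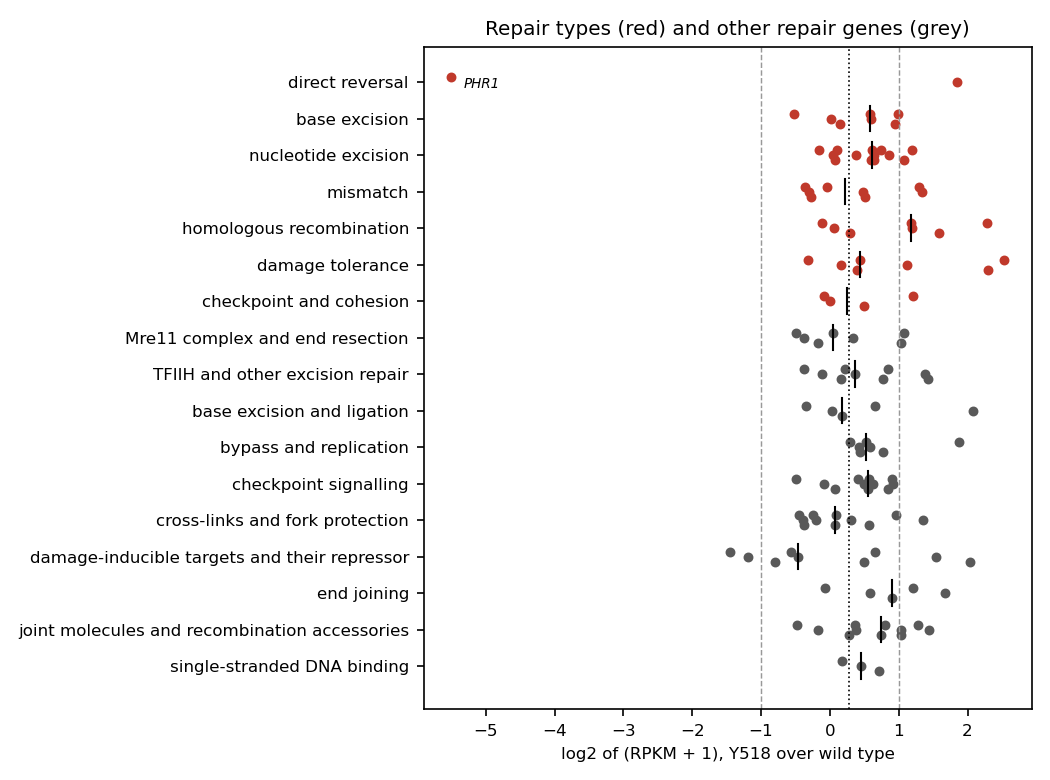
Log2 ratio of (RPKM + 1), Y518 over the wild type, for each repair gene by type (red) and for the other repair genes by group (grey), among genes that reached 5 RPKM. Black ticks are group medians (none is drawn for the pair of direct reversal genes), the dotted line is the median of all genes at 0.27 and dashed lines mark 2-fold; homologous recombination has the highest median of the types with a tick, 1.18.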

How the data were processed

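Total RNA went into the libraries, per the labels' protocols. The aligner and counter, any poly(A) selection and the build were not given in the sources used here. The authors deposited, per the file headers, a unique read count, a coverage (percent of gene length) and an RPKM per gene and library. The deposited RPKM equalled count over length and library total (4.32 M reads for Y518, 4.71 M for the wild type) with 0 values off by more than 1e-06 relative. A dash was read as 0 reads. The shorter series table and the single-library tables held the same counts (0 mismatches). Columns of other samples numbered 0.

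Members and lists were chosen with earlier results of these data known. Members are named, except for a few items not reported here; of the other repair genes, those called are named up to the 8 highest and 8 lowest. MRE11, XRS2, TRM8, MPA43 and YML096W were chosen after their values were seen. Sequences, neighbours and near-identical copies (BLAST+ 2.17.0, megablast) came from R64, matched by accession and version for 5685 genes, all of equal coding length. Evenly placed reads, at random along the gene, are expected to cover 1 - exp(-reads × read length / gene length). Intervals of a ratio between 2 genes' ratios are conditional exact (scipy 1.17.1), and TMM factors came from edgeR 4.0.16. The scripts were checked on simulated counts. A count of 0 allows 0.695 CPM in Y518 and 0.637 CPM in the wild type.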

Additional observations from a re-analysis of the deposited data

How the results depend on the processing

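With 1 library per strain, the call by size has no replicate behind it, and PCR duplicates are not independent molecules. No paired analysis was possible because each strain has 1 library, and for the same reason no replicate could be left out. The 13 higher members became 7 with a pseudocount of 5 RPKM and 7 with an RPKM minimum of 20 (25 members compared). They became 7 when centred on the median of all genes and 7 under TMM scaling. Of all genes 19.9% were higher in the main run, and 16.2%, 20%, 13.2% and 13.5% in these alternatives in turn. Centring and TMM each left 42 of the 48 members on their side of the threshold, and the other 6 were no longer called. The 1 lower member, PHR1, was called under each alternative run. The median log2 ratio of the members, 0.50, became 0.38 with the pseudocount of 5 RPKM and 0.38 with the minimum of 20 RPKM. It became 0.23 when centred and 0.26 under TMM. The median of all genes, 0.27, became 0.24, 0.24, 0.00 and 0.01 in the same order. Of the other repair genes 15 were higher and 2 lower. These became 8 and 1 with the pseudocount of 5 RPKM and 7 and 1 when the whole counting interval had to lie beyond 2-fold. With the minimum of 20 RPKM 4 of the 38 compared were higher. Without chromosome IX, an alternative chosen after seeing the data, 1 was lower. A pseudocount of 0.1 RPKM, no minimum, and leaving out genes with near-identical copies or under 50% coverage in both libraries kept each count within 1.5 times. Leaving out genes covered unevenly in both libraries, also chosen after seeing the data, left 13 and 1 members, and leaving out chromosome IX 12 and 1.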

Other observations

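The stress response element AGGGG, searched on both strands in the same promoter windows, was in 11 of 51 member windows (21.6%) and in 1239 of 5685 windows over all matched genes (21.8%). Of the 11 members with it 2 were called higher in Y518, beside 269 of 1185 over all genes with it that reached the minimum. The median log2 ratio of the 11 was 0.50, beside 0.51 for the 37 members without it that reached the minimum.

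The MCB element was more frequent in the other repair genes, in 17 of 83 windows (20.5%). Of these, 15 reached the minimum, CDC9 and POL30 were the 2 called higher in Y518, and RNR3, which also holds it, was called lower.

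Coding length did not order the ratios. Its Spearman rho with the log2 ratio was 0.06 over the 48 members that reached the minimum and -0.04 over all 5415 genes, each across genes of the same 2 libraries.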
